A study of Mus musculus with 29 samples.

Results

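The genes described here are 38 members of the protein-folding machinery of the endoplasmic reticulum (ER) and of the unfolded protein response, out of 54532 genes listed in the count table. They were taken by symbol from a list of pathway genes, with no threshold on their values, and all 38 passed the limit of a mean count of 3 over all mice that left 18616 genes for testing. The list was chosen with earlier results of these data known, so a comparison of its members with all genes is not independent of that choice. They fall into 12 lumenal chaperones and co-chaperones, 6 disulfide or prolyl isomerases, 6 genes of ER-associated degradation, 3 genes of protein translocation, 4 targets of the PERK and ATF4 arm, and 7 stress sensors and transcription factors. Colon RNA of 29 mice was sequenced in 9 groups, 6 colitis models and 3 untreated control groups. According to the labels, untreated Balb/C mice (n = 3) were the wild-type controls. Other Balb/C mice received 3% DSS, a sulfated dextran that injures the epithelium, in drinking water for 5 days with culling at day 10 (n = 3), or rectal DNBS, a hapten, at 3 mg in 50% ethanol (n = 3), or an antibody that blocks IL10 signalling, for up to 4 weeks (n = 4). The treatment protocol gives 750 µg of an antibody against the IL-10 receptor, whereas the group label names IL10. TRUC mice (n = 4) were Balb/C and lacked both Tbx21 and Rag2, develop colitis without treatment and were compared with untreated Balb/C Rag2-/- mice (n = 3). Mice labelled C57BL/6 Rag1-/- were left untreated (n = 3), injected with 50 µg of agonistic anti-CD40 antibody and culled after 7 days (n = 3), or given 500000 naive CD4+ T cells and culled after 6 to 8 weeks (TCT, n = 3), although the treatment text names Rag2-/- recipients for the transfer. Rag deficiency removes T and B cells, so those groups share the absence of both, except for the T cells transferred in TCT. The study's paper describes some groups differently from the labels, among them the strain of the wild-type and DSS mice and the means of IL-10 deficiency.

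Secreted and membrane proteins are threaded into the ER through the Sec61 channel, folded with the help of BiP (Hspa5), GRP94 (Hsp90b1), the lectins calnexin and calreticulin, and the protein disulfide isomerases, and destroyed by ER-associated degradation when folding fails. Unfolded proteins are sensed by IRE1, of which the colon has a widely expressed form (Ern1) and a form of mucus-producing epithelium (Ern2), by PERK (Eif2ak3) and by ATF6. IRE1 splices the Xbp1 messenger, PERK slows translation and favours the translation of ATF4, and ATF6 is cut to release a transcription factor. Counts per gene show the amount of messenger and cannot show Xbp1 splicing, sensor phosphorylation, ATF6 cleavage or translation.

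Total counts per mouse ran from 10725564 to 14977094, and levels are given as CPM, which are read counts relative to library size on the TMM scale. The check of the targeted genes went against 2 labels. Rag2 had 6 to 20 counts in the libraries labelled Rag1-/- control and 48 to 99 in those labelled anti-CD40, compared with 15 to 25 in the Rag2-/- controls, 57 to 94 in TRUC and 0 in every TCT library. Rag1 had 20 to 33 counts in TCT and at most 4 in the libraries labelled Rag1-/- control. Srp54a, a signal recognition particle gene with near-identical copies, was at 10.9 to 11.5 CPM in TCT and 9.37 to 12.8 CPM in the wild-type, DSS, DNBS and IL10 antibody mice, and at 0.405 to 1.25 CPM in the libraries labelled Rag1-/- control, anti-CD40, Rag2-/- control and TRUC. TCT libraries thus differed from their labelled controls in these genes too, and a difference of strain or genotype cannot be told apart from the transfer. Against the wild-type controls 19 members were higher and 1 lower in TCT, and against the Rag2-/- controls 25 were higher and 1 lower in anti-CD40. In TRUC, which lacks Tbx21 by label, 26 to 52 counts of Tbx21 were found, against 1 to 7 in the Rag2-/- controls, and counts per gene do not show which exons they came from. Epithelial markers of the colon summed to between 5900 and 18900 CPM in every mouse. With the IL10 antibody their sum was 10800 to 18900 CPM and in DSS 5900 to 7820 CPM, against 7860 to 9620 CPM in wild-type controls. Of 8 pancreatic acinar markers only 2 were abundant enough to be tested. The sum of the 8 was 297 to 510 CPM in control mice and 49.7 to 341 CPM in the models. Of the 2 tested, 1 fell in every model but DNBS, and 1 rose in TRUC and with the IL10 antibody.

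The regulatory sequences of this pathway are short, and those found in the members' promoters are shown because the members that hold them are compared with the rest further on. RefSeq promoter windows on GRCm38.p6, from 250 bases before to 50 bases after the annotated start, were at hand for 33 members, the exceptions being Sec61a1, Atf6, Ern2, Hyou1 and Manf. For Trib3, Pdia4, Derl3, Xbp1 and Dnajc3 a stretch just after the start was not found in an annotated transcript of the same gene. Their starts, and positions counted from them, are therefore less certain. The ER stress element was searched as CCAAT, any 9 bases and CCACG, ER stress element II as ATTGG, 1 base and CCACG, and the ATF4 and C/EBP element as TGATG, 1 base and AA, each on both strands. Every sequence below reads 5′ to 3′ on the strand of its gene, with the match in capitals and 5 bases either side in lower case, so that a match on the other strand appears in reverse (CGTGG first).
Hspa5, chr2:34772020-34772048, plus strand: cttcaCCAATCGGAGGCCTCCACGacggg
Hsp90b1 distal, chr10:86705633-86705661, minus strand: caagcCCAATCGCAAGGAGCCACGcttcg
Hsp90b1 proximal, chr10:86705528-86705556, minus strand: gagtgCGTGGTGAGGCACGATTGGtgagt
Calr, chr8:84847070-84847098, minus strand: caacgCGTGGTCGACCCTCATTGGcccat
Canx, chr11:50325795-50325823, minus strand: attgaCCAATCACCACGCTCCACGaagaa
Pdia6, chr12:17266486-17266514, plus strand: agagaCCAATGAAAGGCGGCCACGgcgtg
Dnajc3, chr14:118937822-118937850, plus strand: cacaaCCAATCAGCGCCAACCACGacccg
Creld2, chr15:88819515-88819543, plus strand: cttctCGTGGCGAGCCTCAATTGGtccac
Syvn1, chr19:6046527-6046555, plus strand: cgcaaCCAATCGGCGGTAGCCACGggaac
Derl3, chr10:75893237-75893265, plus strand: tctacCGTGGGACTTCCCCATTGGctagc
Herpud1 element II, chr8:94386372-94386392, plus strand: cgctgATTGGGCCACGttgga
Dnajb11 element II, chr16:22857847-22857867, plus strand: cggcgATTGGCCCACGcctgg
Chac1 ATF4 element, chr2:119351044-119351061, plus strand: tgccgTTGCATCActcct
Asns ATF4 element, chr6:7693220-7693237, minus strand: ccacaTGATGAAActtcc
Herpud1 ATF4 element, chr8:94386312-94386329, plus strand: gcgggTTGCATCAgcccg
Trib3 ATF4 element, chr2:152344034-152344051, minus strand: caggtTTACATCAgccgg

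An ER stress element was found in 9 of the 33 members with a promoter window (27.3%) and in 37 of 27025 genes (0.137%), and element II in 2 members (6.06%) and 12 genes (0.0444%). The ATF4 element was found in 4 members (12.1%) and 1219 genes (4.51%). The core TGACG directly followed by TGG, bound by XBP1, was in 0 of the 33 windows and in 193 genes (0.714%). A match describes letters in a window of 300 bases and is not a bound site. Before the start the matches began between base -212 (Hsp90b1) and base -23 (Asns), with those of Hspa5 at -65 to -47 and Creld2 at -126 to -108, while those of Dnajb11 and Trib3 lay just after it. Hsp90b1 held a pair of elements, at -212 to -194 and at -107 to -89, in the 250 bases before its start (chr10:86705445-86705694, minus strand, both matches in capitals).
Hsp90b1 promoter: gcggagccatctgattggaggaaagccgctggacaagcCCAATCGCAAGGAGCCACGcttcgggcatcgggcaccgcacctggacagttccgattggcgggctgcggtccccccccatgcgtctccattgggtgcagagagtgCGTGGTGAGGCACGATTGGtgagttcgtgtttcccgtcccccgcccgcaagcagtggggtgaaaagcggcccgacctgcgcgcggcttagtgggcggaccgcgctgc

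In untreated colon the abundant members were chaperones and isomerases. Per kilobase of exon and averaged over the 9 control mice, calreticulin (Calr) stood at 228 CPM, Pdia3 at 190, P4hb at 163 and Hspa5 at 122. The stress sensors were far lower on this scale, with Ern2 at 26.2, Atf6 at 8.98, Eif2ak3 at 7.41 and Ern1 at 6.61 CPM per kilobase. The least abundant members were Chac1 (0.503), Derl3 (0.435) and Trib3 (0.386).

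Which members change in colitis, and in which model, is the question the 6 comparisons answer. The quasi-likelihood test of edgeR was applied between each model and the control named above at a Benjamini-Hochberg adjusted p below 0.05 over all genes tested, and members past this threshold are said to have risen or fallen. In TRUC 29 of 38 members rose and 1 fell, where 22.4% of all genes tested were called higher and 23.4% lower. With the IL10 antibody 30 rose and 1 fell, against 27.2% and 26.1% of all genes. In anti-CD40 23 rose and 1 fell, against 10.9% and 10.7%. In DSS 17 rose and 2 fell, against 17.7% and 16.3%. In TCT 17 rose and 1 fell, against 16.1% and 14%. In DNBS 6 rose and 1 fell, against 3.95% and 2.21%. In every model the share of members that rose exceeded the share of all genes, and the share that fell did so only in DNBS, where it was a single gene.

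The median log2 fold change over the 38 members was 0.97 in TRUC, 0.81 with the IL10 antibody, 0.64 in anti-CD40, 0.37 in TCT, 0.36 in DSS and 0.30 in DNBS, while the median over all genes tested lay between -0.03 and 0.02. DSS, DNBS and IL10 antibody mice share the wild-type controls, and TCT and anti-CD40 share the libraries labelled Rag1-/- control. Ssr3, a subunit of the translocon-associated complex, rose in all 6 models, and 12 members rose in 5 of them. The latter were Hspa5, Dnajc3, Sdf2l1, Manf, Creld2, Hyou1, Xbp1, Chac1 and Asns, which did not pass the test in DNBS, P4hb and Sec61b, which did not pass in DSS, and Dnajc10, which did not pass in TCT. How many of all genes rose in as many models was not counted. These counts over models therefore do not show whether members recur more often than other genes.

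**Figure D1:**
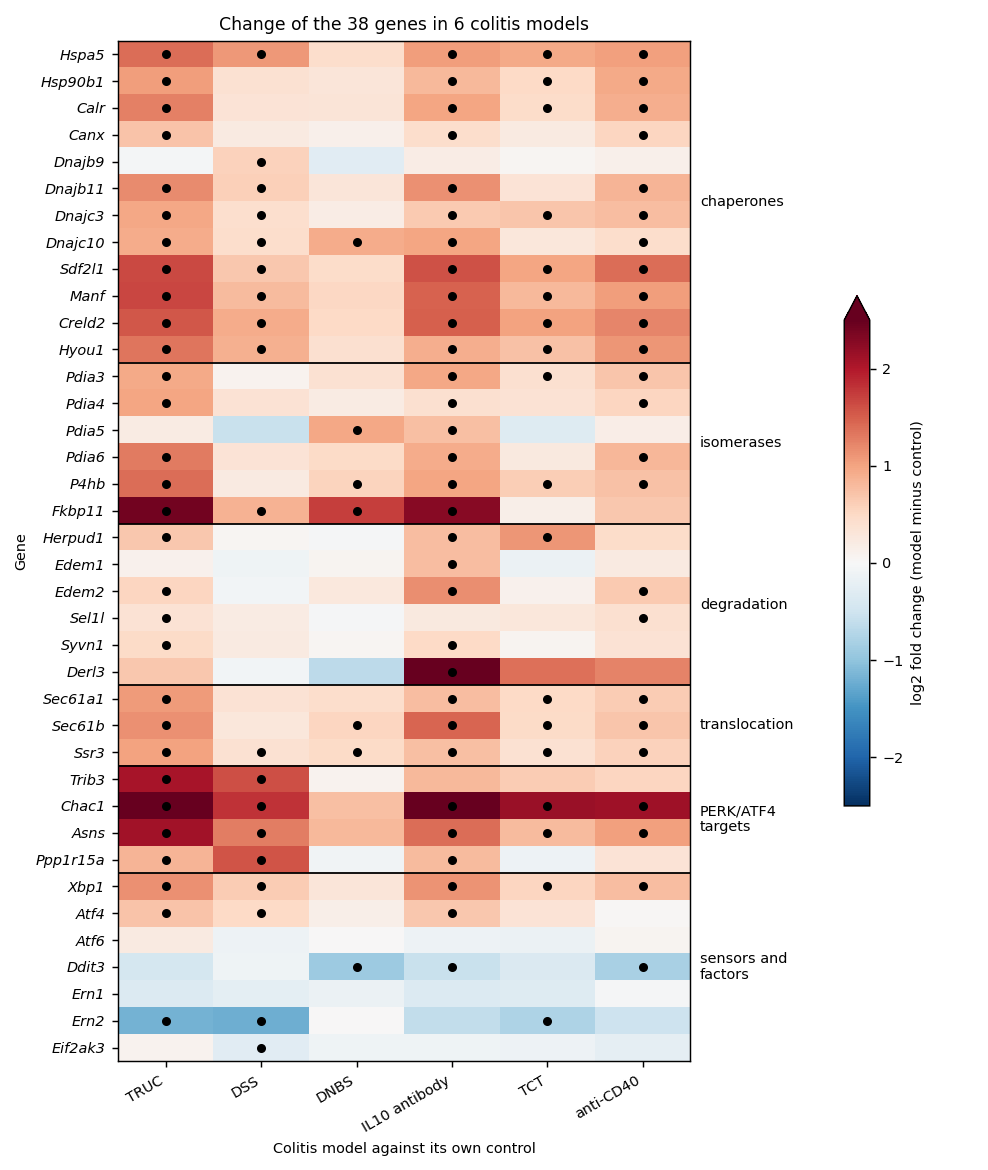
Log2 fold change of each of the 38 genes (rows, grouped by role) in each colitis model against its own control (columns), on a color scale limited at 2.5, where a dot marks an adjusted p below 0.05 in edgeR. Chaperone and translocation rows are mostly red, Ern2 and Ddit3 rows mostly blue, and the DNBS column holds few dots.

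Leaving out single mice moved some of these counts. The count of risen members in DSS went from 17 to 8 without DSS mouse 8, and in anti-CD40 from 23 to 13 without mouse 7. In TCT it went from 17 to 4 without TCT mouse 5 and to 8 without mouse 3 of the libraries labelled Rag1-/- control. In DNBS it was 13 without DNBS mouse 11, 2 without mouse 14, 3 without mouse 16, and 2, 3 and 3 without wild-type mouse 1, 2 and 4. TRUC and IL10 antibody counts stayed between 27 and 30 without any one mouse. Leaving out a mouse also makes its group smaller, so here and below a call can be lost with little change of its fold. The largest moves of a called fold were 1.77 times for Ppp1r15a without DSS mouse 8 and 1.54 times for Chac1 without anti-CD40 mouse 7.

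The level of the whole group in each mouse showed the same unevenness. The median over the 38 members of log2(CPM + 0.5) minus the control mean was 0.85, 1.00, 1.12 and 0.93 in TRUC mice 2, 3, 4 and 5 and 0.88, 0.96, 0.77 and 0.76 in IL10 antibody mice 1 to 4. It was 0.25, 0.37 and 0.46 in DSS mice 5, 6 and 8, and 0.54, 0.84 and 0.37 in anti-CD40 mice 6, 7 and 8. In TCT mice 1, 3 and 5 it was 0.12, 0.38 and 0.64, and in DNBS mice 11, 14 and 16 it was -0.05, 0.32 and 0.61, so that DNBS mouse 11 lay within the range of the controls (-0.08 to 0.09). Neutrophil markers (S100a8, S100a9, Csf3r, Cxcr2 and Mmp8), at 0.891 to 1.73 CPM in sum in control mice, were at 174, 320 and 1600 CPM in DSS mice 5, 6 and 8 and at 109, 128 and 257 CPM in TCT mice 1, 3 and 5. They were at 31.5, 189 and 35.3 CPM in anti-CD40 mice 6, 7 and 8 and at 20.8, 94.6 and 57.7 CPM in DNBS mice 11, 14 and 16. They were highest in TRUC mouse 3 (1246 CPM) and IL10 antibody mouse 2 (335 CPM). The mouse with the most neutrophil transcripts had the highest median of the members in DSS, TCT, anti-CD40 and IL10 antibody mice but not in DNBS or TRUC. In such whole-tissue RNA, fewer cells of a type and less RNA per cell cannot be told apart.

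Other cell type markers moved as well. All 5 monocyte and macrophage markers rose in TRUC, DSS and TCT, and their sum was 540 to 633 CPM in TRUC against 226 to 337 CPM in Rag2-/- controls, 819 to 1770 CPM in DSS against 318 to 374 CPM in wild-type controls and 1140 to 2060 CPM in TCT against 261 to 293 CPM in the labelled controls. With the IL10 antibody 2 of the 5 rose, in anti-CD40 1 did and in DNBS 0 did. The sum of the 5 still lay above all controls in these models. It was 729 to 1150 CPM with the IL10 antibody, 466 to 537 CPM in DNBS and 425 to 693 CPM in anti-CD40. Of 5 T cell markers, 5 rose with the IL10 antibody and in TCT, 4 in DSS and 3 in TRUC. TRUC mice lack T cells by label, and the rise there was from a low level. The sum of the T cell markers was 6.5 to 8.1 CPM in TRUC against 2.3 to 5.89 CPM in Rag2-/- controls. In wild-type controls it was higher, at 9.9 CPM or more. Which cells the TRUC reads came from was not tested. Of 5 smooth muscle markers 4 fell with the IL10 antibody and 2 in TRUC, and of 5 fibroblast markers 3 rose in DNBS and 2 in DSS, while 2 fell with the IL10 antibody and 1 rose in TCT and 1 fell in anti-CD40. The part of any of these cell types, neutrophils included, in the changes of the 38 genes was not tested.

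**Figure D2:**
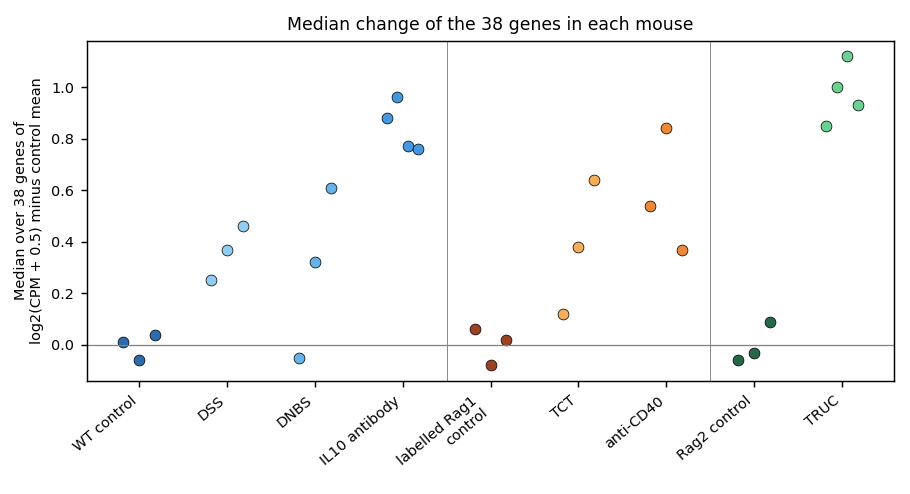
Median over the 38 genes of log2(CPM + 0.5) minus the mean of the mouse's control group (vertical axis) for every mouse (points) in the 9 groups. All TRUC and IL10 antibody mice lie between 0.76 and 1.12, and DNBS mouse 11 lies among the controls.

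Of the 12 lumenal chaperones and co-chaperones, 11 rose in TRUC, 11 with the IL10 antibody, 11 in anti-CD40, 9 in DSS, 8 in TCT and 1 in DNBS. BiP (Hspa5), the ER member of the HSP70 family, was at 519, 481 and 521 CPM in wild-type controls and at 885, 988 and 1330 CPM in DSS mice 5, 6 and 8. It was at 1010, 1320, 1030 and 840 CPM in IL10 antibody mice and at 501, 640 and 921 CPM in DNBS mice 11, 14 and 16. All DSS and IL10 antibody mice exceeded every wild-type control, and DNBS mouse 11 lay within their range.

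In the libraries labelled Rag1-/- control Hspa5 was at 522, 400 and 507 CPM, in TCT mice 1, 3 and 5 at 584, 943 and 1210 CPM and in anti-CD40 mice 6, 7 and 8 at 854, 1320 and 750 CPM. In Rag2-/- controls it was at 485, 509 and 709 CPM and in TRUC mice at 1280, 1600, 1690 and 1360 CPM. No TRUC, TCT or anti-CD40 mouse overlapped its controls. The log2 fold change was 1.39 ± 0.243 (SE) in TRUC (adjusted p = 9.87e-05), 1.08 ± 0.252 in DSS (0.00213), 1.05 ± 0.24 with the IL10 antibody (0.000892), 1.03 ± 0.252 in anti-CD40 (0.00565) and 0.94 ± 0.252 in TCT (0.00624). In DNBS it was 0.44 ± 0.25 (adjusted p = 0.285). The call was lost without TCT mouse 5 in TCT and without mouse 7 in anti-CD40.

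Creld2, Sdf2l1 and Manf, soluble ER proteins known as targets of the response, rose in 5 models each. Creld2 was at 116, 161, 171 and 133 CPM in TRUC mice against 43.9, 45.7 and 58.0 CPM in their controls. It was at 116, 134, 127 and 101 CPM in IL10 antibody mice and 70.8, 81.0 and 90 CPM in DSS mice, against 43.0, 38.8 and 45.8 CPM in wild-type controls. In TCT mice 1, 3 and 5 it was at 49.3, 86.2 and 130 CPM and in anti-CD40 mice 6, 7 and 8 at 88.3, 137 and 85.1 CPM, against 50.7, 37.0 and 44.6 CPM. TCT mouse 1 lay within the control range, and the TCT call (log2 fold change 1.00 ± 0.27 (SE), adjusted p = 0.00642) was lost without TCT mouse 5.

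Sdf2l1, a partner of the ER DnaJ proteins, was at 100, 133 and 84.9 CPM in anti-CD40 mice 6, 7 and 8 against 42.7, 39.6 and 38.9 CPM in their labelled controls, with no overlap. Its log2 fold change was 1.39 ± 0.203 (SE) in anti-CD40 (adjusted p = 6.94e-05), 1.65 in TRUC, 1.60 with the IL10 antibody, 0.98 in TCT, 0.67 in DSS and 0.45 in DNBS, where it did not pass the test. Manf changed by 1.67, 1.47, 1.04, 0.82, 0.79 and 0.52 on the log2 scale in TRUC, IL10 antibody, anti-CD40, TCT, DSS and DNBS, the last without passing the test, and 6.17% of its 50-base windows are shared with another gene (mainly Dcaf1). Hyou1, a large HSP70-like chaperone, rose by 1.34 in TRUC, 1.10 in anti-CD40, 0.90 with the IL10 antibody, 0.89 in DSS and 0.74 in TCT. In DSS the calls of Manf and Hyou1 were lost without mouse 8, and those of Sdf2l1 and Hyou1 without wild-type mouse 1. In TCT the calls of Manf and Hyou1 were lost without mouse 5, and that of Hyou1 also without TCT mouse 3 or control mouse 3 or 4. The anti-CD40 call of Hyou1 was lost without mouse 7.

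The lectin chaperones and GRP94 rose in fewer models. Calr, calreticulin, rose by 1.25 in TRUC, 0.99 with the IL10 antibody, 0.91 in anti-CD40 and 0.46 in TCT on the log2 scale, and Hsp90b1 by 1.05, 0.81, 0.94 and 0.49 respectively, although 9.75% of the Hsp90b1 windows are shared with an overlapping gene. Canx, calnexin, rose in TRUC (0.71), anti-CD40 (0.54) and with the IL10 antibody (0.43). None of these 3 passed the test in DSS, with values of 0.35, 0.38 and 0.22. The TCT calls of Calr and Hsp90b1 were lost without TCT mouse 5 or control mouse 2 or 3, and that of Hsp90b1 also without TCT mouse 3 or control mouse 4. The anti-CD40 call of Canx was lost without mouse 7.

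Of the ER DnaJ co-chaperones, Dnajc3, an inhibitor of PERK and co-chaperone of BiP, rose by 0.96 in TRUC, 0.78 in anti-CD40, 0.70 in TCT, 0.65 with the IL10 antibody and 0.42 in DSS, the last lost without wild-type mouse 1 or DSS mouse 8. Dnajb11 rose in TRUC (1.18), with the IL10 antibody (1.14), in anti-CD40 (0.84) and in DSS (0.59). Dnajb9, a co-chaperone that represses IRE1, rose only past the threshold in DSS (0.57 ± 0.152 (SE), adjusted p = 0.00581), where the call was lost without mouse 8. Its values in the other models lay between -0.28 and 0.19, and its change differed between the 6 models in the F test described further on (adjusted p = 0.00196).

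Dnajc10, a disulfide reductase with a DnaJ domain, was the chaperone that rose in DNBS, at 164, 234 and 208 CPM in mice 11, 14 and 16 against 108, 104 and 106 CPM in wild-type controls. The ranges did not overlap, and the log2 fold change was 0.93 ± 0.134 (SE, adjusted p = 0.000616). This was the DNBS call that held under all settings tried. Dnajc10 also rose by 0.99 with the IL10 antibody, 0.93 in TRUC, 0.44 in anti-CD40 and 0.44 in DSS, the DSS call being lost without DSS mouse 5 and the anti-CD40 call without control mouse 3 or 4 or anti-CD40 mouse 6 or 7.

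**Figure D3:**
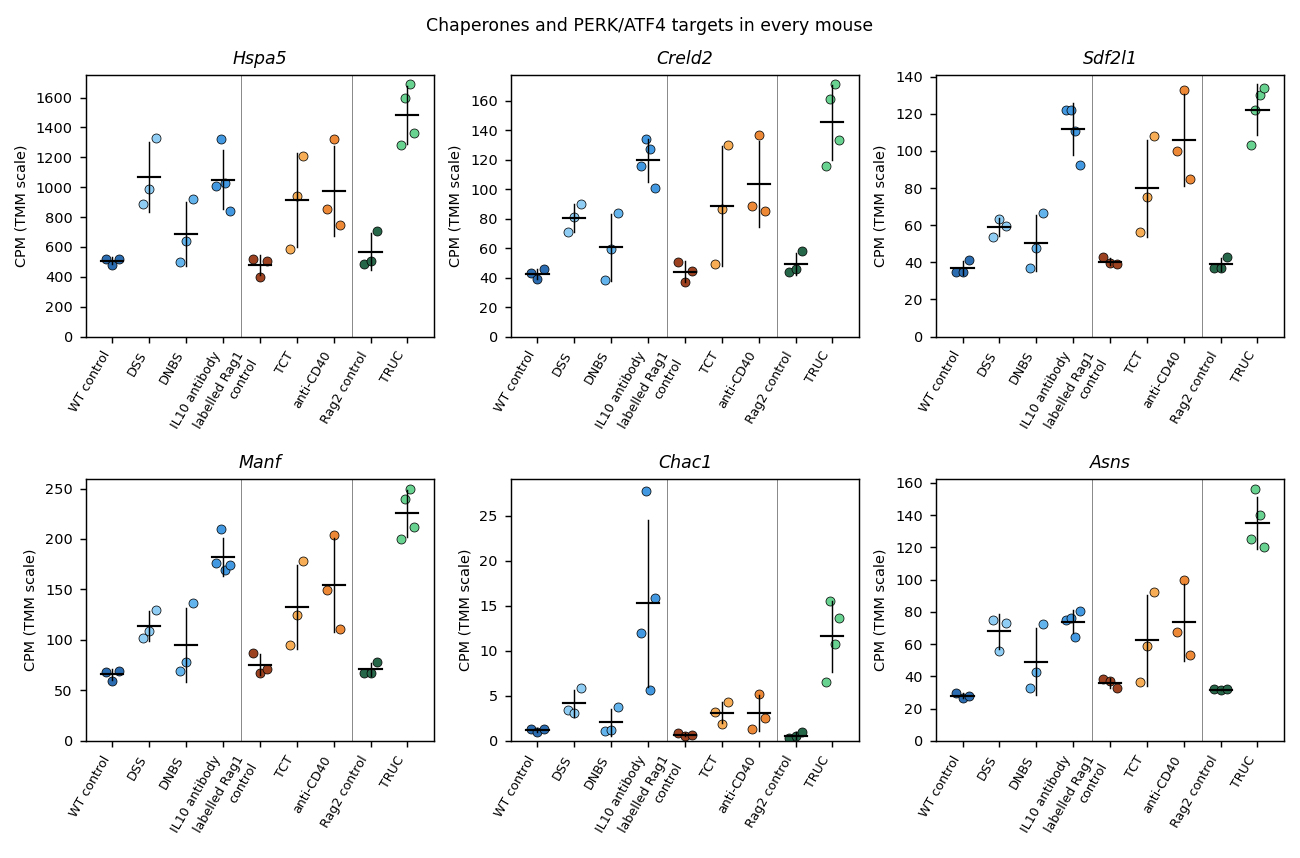
CPM on the TMM scale (vertical axes, from 0) of Hspa5, Creld2, Sdf2l1, Manf, Chac1 and Asns in every mouse (points) of the 9 groups, with the group mean (bar) and SD (line), where vertical grey lines separate the sets of groups that share a control. In TRUC all 4 mice exceed their controls for all 6 genes.

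Of the 6 isomerases, 5 rose in TRUC, 6 with the IL10 antibody, 4 in anti-CD40, 3 in DNBS, 2 in TCT and 1 in DSS. The DSS share of 16.7% was near the 17.7% of all genes called higher there. Fkbp11, a prolyl isomerase of secretory cells, was at 21.2, 29.3, 28.3 and 23.4 CPM in TRUC mice against 3.89, 4.67 and 5.66 CPM in Rag2-/- controls, a log2 fold change of 2.42 ± 0.317 (SE, adjusted p = 4.2e-06). It was at 24.6, 16.7, 21 and 20.5 CPM in IL10 antibody mice and at 7.10, 21.8 and 13.9 CPM in DNBS mice 11, 14 and 16, against 5.18, 3.13 and 4.59 CPM in wild-type controls. All of these mice exceeded their controls, with log2 fold changes of 2.27 ± 0.318 (adjusted p = 5.7e-06) and 1.73 ± 0.327 (adjusted p = 0.00474).

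In DSS Fkbp11 rose by 0.87 ± 0.328 (SE, adjusted p = 0.0418), a call lost without wild-type mouse 2 or 4 or DSS mouse 5 or 8. It did not pass the test in anti-CD40 (0.68) or TCT (0.15). Against the Rag2-/- controls the anti-CD40 value was 1.45 (adjusted p = 0.00299), and against the wild-type controls the TCT value was 1.06 (adjusted p = 0.0172). TCT mice 1, 3 and 5 were at 5.24, 8.46 and 13.2 CPM, anti-CD40 mice 6, 7 and 8 at 13.1, 15.9 and 9.97 CPM, and the libraries labelled Rag1-/- control at 7.78, 9.42 and 7.05 CPM, above every other control. Whether Fkbp11 passed in these 2 groups thus depended on the control.

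Pdia5, a disulfide isomerase reported to act on ATF6, was at 50.9, 100 and 64.0 CPM in DNBS mice 11, 14 and 16 against 37.2, 39.3 and 33.6 CPM in wild-type controls. The groups did not overlap, and the log2 fold change of 0.97 ± 0.222 (SE, adjusted p = 0.0133) did not pass the test without wild-type mouse 1 or 4 or DNBS mouse 14. It rose by 0.76 with the IL10 antibody and stood at -0.55 in DSS (adjusted p = 0.0581), where all 3 mice were below the controls. P4hb, the abundant disulfide isomerase, rose in TRUC (1.40), with the IL10 antibody (0.98), in anti-CD40 (0.73), in TCT (0.61) and in DNBS (0.55), the last lost without wild-type mouse 1 or 2 or DNBS mouse 14 or 16.

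Pdia3, the partner of the lectin chaperones, rose by 0.96 with the IL10 antibody, 0.95 in TRUC, 0.69 in anti-CD40 and 0.41 in TCT. Its TCT call was lost without TCT mouse 5 or control mouse 3. Pdia6 rose by 1.30 in TRUC, 0.92 with the IL10 antibody and 0.83 in anti-CD40. Pdia4 rose by 0.98 in TRUC, 0.54 in anti-CD40 and 0.40 with the IL10 antibody, the last at an adjusted p of 0.0496 and lost without any one of 6 of the 7 mice. The anti-CD40 call of Pdia4 was lost without control mouse 3 or 4 or anti-CD40 mouse 7. In DSS these 3 genes stood at 0.09, 0.35 and 0.36 and did not pass the test.

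Of the 3 translocation genes 3 rose in TRUC, with the IL10 antibody, in TCT and in anti-CD40, 2 in DNBS and 1 in DSS. Ssr3 changed by 1.01 in TRUC, 0.75 with the IL10 antibody, 0.57 in anti-CD40, 0.47 in DNBS, 0.39 in DSS and 0.38 in TCT, and its calls in DNBS, DSS and TCT were each lost without any one of 4 or 5 of the 6 mice. Sec61b, a subunit of the channel, rose by 1.46 with the IL10 antibody, 1.14 in TRUC, 0.69 in anti-CD40, 0.54 in DNBS and 0.48 in TCT, and 17.4% of its windows are shared with Gm10320. Sec61a1, the pore subunit, rose by 1.07 in TRUC, 0.78 with the IL10 antibody, 0.64 in anti-CD40 and 0.50 in TCT. Without TCT mouse 3 or 5 neither Sec61 gene passed the test in TCT, and Sec61b did not pass without control mouse 3. Without anti-CD40 mouse 7 neither Sec61a1 nor Ssr3 passed in anti-CD40. The DNBS call of Sec61b was lost without any one of 5 of the 6 mice.

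Of the 6 genes of ER-associated degradation, 5 rose with the IL10 antibody, 4 in TRUC, 2 in anti-CD40 and 1 in TCT. The TCT share of 16.7% was near the 16.1% of all genes called higher there. In DSS 0 rose by edgeR, with 0 at an unadjusted p below 0.05 and 0 by DESeq2, and in DNBS 0 rose, with 1 at an unadjusted p below 0.05 and 0 by DESeq2. Edem2, a mannosidase-like protein that marks misfolded glycoproteins, rose by 1.16 ± 0.121 (SE) with the IL10 antibody, where it was at 90, 91.7, 94.8 and 87.5 CPM against 38.1, 36.6 and 47.5 CPM in wild-type controls (adjusted p = 2.58e-07). It rose by 0.65 in anti-CD40 and 0.53 in TRUC and stood at -0.07 in DSS.

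Edem1, of the same family, rose with the IL10 antibody only (0.77 ± 0.115 (SE), adjusted p = 1.21e-05), with values between -0.14 and 0.23 in the other models and a difference between models in the F test (adjusted p = 7.74e-06). Herpud1, a scaffold of the degradation complex, was at 167, 188 and 190 CPM in TCT mice against 111, 70.7 and 73.1 CPM in the libraries labelled Rag1-/- control. The groups did not overlap, and the log2 fold change was 1.10 ± 0.248 (SE, adjusted p = 0.00154). Against the wild-type controls, which had 127, 124 and 112 CPM, it was 0.59 and did not pass the test (adjusted p = 0.0717).

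Herpud1 also rose by 0.78 with the IL10 antibody and 0.68 in TRUC, the latter lost without TRUC mouse 3 or Rag2-/- mouse 1 or 2. Syvn1, the ubiquitin ligase HRD1, rose by 0.50 with the IL10 antibody and 0.47 in TRUC. Its partner Sel1l rose by 0.36 in TRUC and 0.40 in anti-CD40, the latter lost without mouse 7 or control mouse 3, and stood at 0.25 with the IL10 antibody (adjusted p = 0.0512).

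Derl3, a derlin of secretory cells such as plasma cells, rose with the IL10 antibody. It was at 15.8, 15.2, 27.5 and 8.46 CPM in IL10 antibody mice against 0.914, 1.46 and 2.54 CPM in wild-type controls, a log2 fold change of 3.35 ± 0.42 (SE, adjusted p = 1.73e-06). It was at 1.13, 1.57 and 2.00 CPM in DSS mice and 1.13, 1.39 and 0.511 CPM in DNBS mice, which overlapped those controls. In TRUC it was at 0.663, 0.978, 1.47 and 0.977 CPM against 0.354, 0.688 and 0.830 CPM in Rag2-/- controls, again with overlap.

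In the libraries labelled Rag1-/- control Derl3 was at 0.324, 0.442 and 0.258 CPM, in TCT at 0.873, 0.854 and 1.02 CPM and in anti-CD40 at 0.376, 1.46 and 0.646 CPM. These are between 3 and 17 reads per mouse, and neither change passed the test (1.38 in TCT, adjusted p = 0.0799, and 1.24 in anti-CD40, adjusted p = 0.136). The plasma cell gene Jchain, which joins immunoglobulin polymers, was at 1670, 1730, 1800 and 1180 CPM in the same IL10 antibody mice, 64.3, 99.7 and 310 CPM in wild-type controls and at most 0.171 CPM in every Rag-deficient mouse. The IL10 antibody mice were thus the highest for both genes, and wild-type mouse 4 was the highest control for both.

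The plasma cell list rose in 10 of its 10 genes with the IL10 antibody. Its summed level was 6210 to 9850 CPM there, 619 to 1830 CPM in wild-type controls, 611 to 1110 CPM in DSS, 478 to 746 CPM in DNBS and 165 to 364 CPM in all Rag-deficient groups. In the latter the sum was nearly all Sdc1 (151 to 331 CPM), which epithelium also expresses, while Mzb1 was at most 0.369 CPM and Pou2af1 at most 0.185 CPM. Plasma cell genes therefore moved with the members in the IL10 antibody comparison, and their part in that result was not tested. Prdm1, a plasma cell factor that other cells also express, was the 1 gene of the list that rose in TRUC, at 40.2, 49.1, 46.3 and 30 CPM against 6.37, 5.35 and 6.57 CPM in Rag2-/- controls. Jchain itself was at 0 in 3 of 4 TRUC mice and at 0.0814 CPM in the other.

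**Figure D4:**
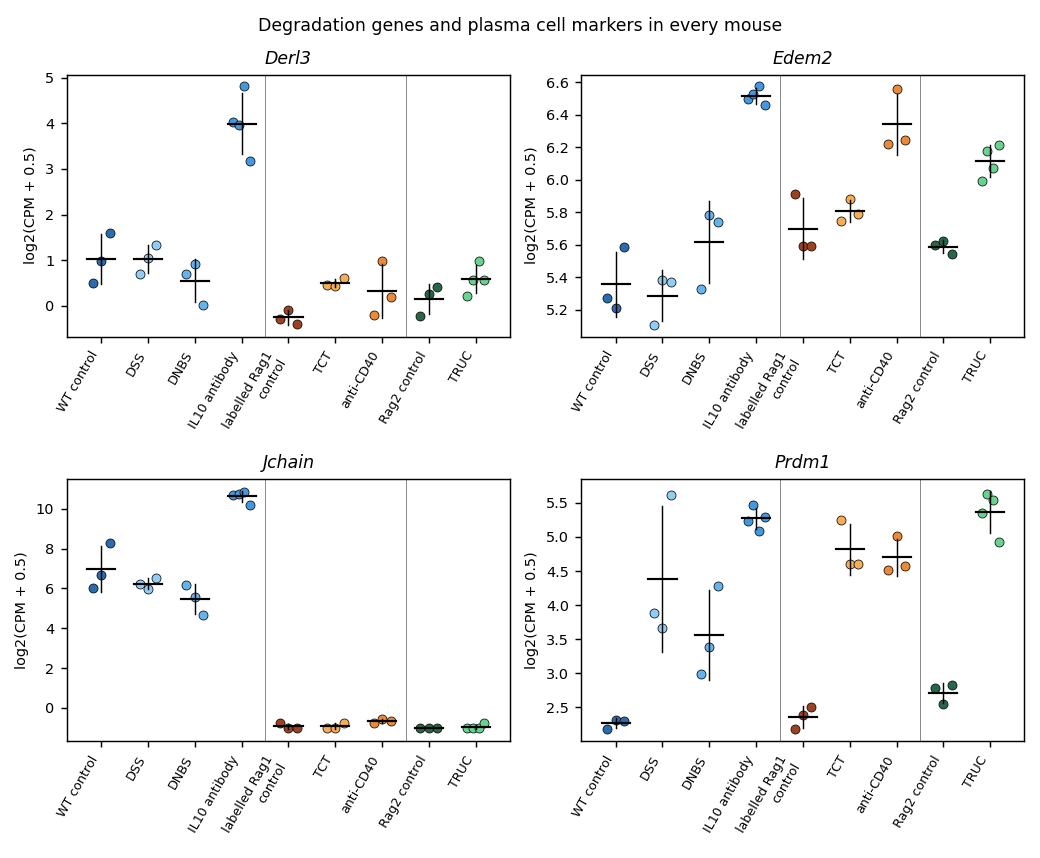
Log2(CPM + 0.5) of Derl3, Edem2, Jchain and Prdm1 (vertical axes) in every mouse (points) of the 9 groups, with the group mean (bar) and SD (line). Derl3 and Jchain are highest in the 4 IL10 antibody mice, and Jchain is near the bottom of its axis in all Rag-deficient mice.

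Of the 4 members listed as targets of the PERK and ATF4 arm, 4 rose in TRUC and in DSS. With the IL10 antibody 3 of them rose, 2 in TCT and 2 in anti-CD40. In DNBS 0 rose by edgeR, with 1 at an unadjusted p below 0.05 and 1 by DESeq2. Ddit3 was counted with the transcription factors and not with this arm, and it stood at -0.44 in TRUC and -0.11 in DSS. The count for the arm therefore depends on how the members were listed. Chac1, a glutathione-degrading enzyme, had the largest log2 fold change of all members in 5 models. It was at 6.49, 15.5, 10.8 and 13.6 CPM in TRUC mice against 0.265, 0.535 and 0.981 CPM in Rag2-/- controls, a log2 fold change of 4.24 ± 0.609 (SE, adjusted p = 1.19e-05). The control values rest on 3, 7 and 13 reads.

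In IL10 antibody mice Chac1 was at 12.0, 27.7, 5.66 and 15.8 CPM and in DSS mice at 3.46, 3.07 and 5.91 CPM, against 1.29, 0.932 and 1.31 CPM in wild-type controls. The groups did not overlap, with changes of 3.69 ± 0.561 (SE, adjusted p = 1.47e-05) and 1.81 ± 0.572 (adjusted p = 0.0172). The DSS call was lost without wild-type mouse 2 or DSS mouse 8. Chac1 was at 3.23, 1.88 and 4.26 CPM in TCT and 1.31, 5.23 and 2.58 CPM in anti-CD40, against 0.891, 0.515 and 0.688 CPM in their labelled controls.

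These changes were 2.15 ± 0.63 (SE, adjusted p = 0.0116) in TCT and 2.12 ± 0.628 (adjusted p = 0.0186) in anti-CD40. The TCT call was lost without TCT mouse 5 or control mouse 3, and also against the wild-type controls (1.40, adjusted p = 0.0712). The anti-CD40 call was lost without control mouse 3 or 4 or anti-CD40 mouse 7, without which the change was 1.5 (adjusted p = 0.162). In DNBS Chac1 was at 1.13, 1.24 and 3.75 CPM in mice 11, 14 and 16 and did not pass the test (adjusted p = 0.443).

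Asns, asparagine synthetase and a target of ATF4, was at 125, 156, 140 and 120 CPM in TRUC mice against 31.9, 31.3 and 32.0 CPM in controls, with no overlap. Its log2 fold change was 2.09 ± 0.26 (SE) in TRUC (adjusted p = 2.26e-06), 1.40 with the IL10 antibody, 1.27 in DSS, 1.03 in anti-CD40 and 0.79 in TCT, and 0.81 in DNBS without passing the test (adjusted p = 0.0668). The Asns calls were lost without TCT mouse 5 or control mouse 3 or 4 in TCT and without mouse 7 in anti-CD40. Trib3, a pseudokinase induced with CHOP, rose in TRUC (2.07 ± 0.501 (SE), adjusted p = 0.00185), where it was at 1.47, 5.07, 3.39 and 2.69 CPM against 0.531, 0.688 and 0.981 CPM. It also rose in DSS, at 1.26, 2.87 and 3.99 CPM in mice 5, 6 and 8 against 0.914, 0.665 and 1.07 CPM in wild-type controls. That change was 1.61 ± 0.508 (SE, adjusted p = 0.0171), lost without wild-type mouse 2 or DSS mouse 8.

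Ppp1r15a (GADD34), which directs the phosphatase that reverses PERK's block of translation, rose by 1.57 ± 0.346 (SE) in DSS (adjusted p = 0.00131). It was at 30.1, 27.3 and 94.7 CPM in DSS mice 5, 6 and 8 against 15.6, 15.4 and 20.3 CPM in wild-type controls. Mouse 8, which also had the most neutrophil transcripts, was the highest, and without it the change was 0.75 (adjusted p = 0.0442). Ppp1r15a also rose in TRUC (0.84, adjusted p = 0.0378) and with the IL10 antibody (0.80, adjusted p = 0.042), lost without any one of 5 and 4 of the 7 mice respectively, and stood at -0.13 in TCT and -0.08 in DNBS.

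Of the 7 sensors and transcription factors, 2 rose and 1 fell in TRUC, 2 rose and 2 fell in DSS, 2 rose and 1 fell with the IL10 antibody, 1 rose and 1 fell in TCT and in anti-CD40, and 1 fell in DNBS. The share that rose was 28.6% in TRUC, in DSS and with the IL10 antibody, and 14.3% in TCT and anti-CD40. Of all genes 22.4%, 17.7%, 27.2%, 16.1% and 10.9% were called higher in these models. Each of these shares rests on 1 or 2 of 7 genes. A single gene is 14.3%, so in none of these models did the share stand clearly apart from all genes. The share that fell was 28.6% in DSS, against 16.3% of all genes. It was 14.3% in each other model, against 23.4% of all genes in TRUC and 26.1% with the IL10 antibody. In TCT, anti-CD40 and DNBS 14%, 10.7% and 2.21% of all genes were called lower. Xbp1, the substrate of IRE1, was at 495, 550, 548 and 501 CPM in TRUC mice against 231, 227 and 248 CPM in Rag2-/- controls. It was at 291, 312 and 338 CPM in DSS, 441, 541, 452 and 332 CPM in IL10 antibody and 194, 249 and 305 CPM in DNBS mice, against 192, 206 and 206 CPM in wild-type controls. It was at 266, 343 and 362 CPM in TCT and 350, 438 and 350 CPM in anti-CD40 mice, against 231, 202 and 236 CPM in the labelled controls.

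Only DNBS mice overlapped their controls for Xbp1. The log2 fold changes were 1.15 ± 0.149 (SE) in TRUC (adjusted p = 3.62e-06), 1.13 ± 0.149 with the IL10 antibody (2.96e-06), 0.77 ± 0.155 in anti-CD40 (0.00137), 0.64 ± 0.155 in DSS (0.00282) and 0.54 ± 0.155 in TCT (0.0103). The TCT call was lost without TCT mouse 5 or control mouse 3, and the DNBS value was 0.31 (adjusted p = 0.225). Atf4, whose product is controlled mainly at translation, rose in TRUC (0.72), with the IL10 antibody (0.67) and in DSS (0.49, lost without mouse 8), and stood at 0.34, 0.15 and 0.03 in TCT, DNBS and anti-CD40.

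Ern1, the widely expressed IRE1, did not pass the test in any model in the fit over all groups (edgeR adjusted p between 0.0824 and 0.962). It was at 48.0, 51.0 and 51.0 CPM in wild-type controls, 35.8, 47.3 and 43.5 CPM in DSS, 43.6, 49.5 and 42.0 CPM in DNBS and 42.6, 31.6, 48.8 and 34.2 CPM in IL10 antibody mice. It was at 55.6, 72.1 and 68.4 CPM in the libraries labelled Rag1-/- control, 60.2, 51.4 and 45.8 CPM in TCT and 61.2, 55.1 and 77.0 CPM in anti-CD40. In Rag2-/- controls it was at 52.5, 32.4 and 55.5 CPM and in TRUC at 40.1, 37.5, 34.2 and 35.7 CPM. Its log2 fold changes lay between -0.35 and -0.02. It passed in TRUC without Rag2-/- mouse 2 (-0.55, adjusted p = 0.00948) and with the IL10 antibody without mouse 3 (-0.47, adjusted p = 0.0263), and in both under upper quartile scaling (-0.45 and -0.51).

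Ern2, the IRE1 of mucus-producing epithelium, fell in 3 models. It was at 39.3, 36.5, 33.9 and 34.7 CPM in TRUC mice against 83.5, 78.4 and 84.2 CPM in Rag2-/- controls, a log2 fold change of -1.18 ± 0.262 (SE, adjusted p = 0.000893). It was at 29.1, 41.9 and 15.7 CPM in DSS mice 5, 6 and 8 against 68.4, 64.1 and 71.0 CPM in wild-type controls, a change of -1.23 ± 0.287 (adjusted p = 0.00204). Neither group overlapped its controls, and both calls held without any one mouse.

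In TCT mice 1, 3 and 5 Ern2 was at 52.8, 62.6 and 30.4 CPM and in anti-CD40 mice 6, 7 and 8 at 47.3, 48.0 and 78.6 CPM, against 85.3, 90 and 72.8 CPM in the labelled controls. The TCT change was -0.77 ± 0.283 (SE, adjusted p = 0.0424), lost without control mouse 2 or 3 or TCT mouse 1 or 5 and against the wild-type controls (-0.48, adjusted p = 0.2). The anti-CD40 change was -0.51 (adjusted p = 0.199). IL10 antibody mice were at 52.2, 43.0, 53.8 and 28.7 CPM, all below the wild-type controls, a change of -0.61 (adjusted p = 0.0539). There Ern2 passed in 5 of 7 other settings, with changes of -0.77 to -0.61 over the 7, and in 2 of 7 fits without 1 mouse. DNBS mice 11, 14 and 16 were at 63.4, 89.6 and 50.8 CPM, on both sides of the controls, a change of 0.00.

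Goblet cell markers (Muc2, Fcgbp, Zg16, Clca1, Tff3, Spdef and Agr2) moved with Ern2 in part. Their sum was 4490 to 5820 CPM in TRUC against 9780 to 11100 CPM in Rag2-/- controls and 4140 to 7490 CPM in TCT against 10200 to 13300 CPM in the labelled controls, but 6160 to 9710 CPM in DSS against 6030 to 7110 CPM in wild-type controls. Of the 7 markers 3 fell and 1 rose in TRUC, 3 fell in TCT and 1 fell in DSS. In anti-CD40 1 fell, and with the IL10 antibody 3 rose and 1 fell. The sum was 7620 to 9040 CPM in anti-CD40, below the labelled controls. It was 5610 to 10100 CPM with the IL10 antibody and 6960 to 7810 CPM in DNBS, overlapping the wild-type controls. Ern2 did not pass the test in anti-CD40, IL10 antibody or DNBS mice in the fit over all groups. In DSS and with the IL10 antibody the summed goblet markers overlapped the controls while Ern2 did not. The part of goblet cells in the fall of Ern2 was not tested.

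Ddit3, which encodes the pro-apoptotic factor CHOP, fell or did not pass the test. It was at 10.9, 12.2 and 10.9 CPM in wild-type controls, 6.86, 6.12 and 5.03 CPM in DNBS, 5.90, 9.97, 6.77 and 8.36 CPM in IL10 antibody and 8.74, 10.5 and 12.3 CPM in DSS mice. It was at 9.48, 7.29 and 10.7 CPM in the libraries labelled Rag1-/- control, 5.26, 4.20 and 6.17 CPM in anti-CD40 and 8.55, 5.30 and 7.41 CPM in TCT mice. In Rag2-/- controls it was at 10.1, 6.81 and 11.2 CPM and in TRUC at 6.34, 8.00, 5.86 and 7.41 CPM. DNBS, IL10 antibody and anti-CD40 mice did not overlap their controls.

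The changes of Ddit3 were -0.91 ± 0.227 (SE, adjusted p = 0.02) in DNBS, -0.81 ± 0.231 (adjusted p = 0.0154) in anti-CD40 and -0.55 ± 0.21 (adjusted p = 0.03) with the IL10 antibody. The DNBS call was lost without wild-type mouse 1 or 2 or DNBS mouse 14 or 16, the anti-CD40 call without control mouse 4 or anti-CD40 mouse 7, and the IL10 antibody call without wild-type mouse 1 or 2 or IL10 antibody mouse 1 or 3. Ddit3 overlaps other annotated genes, among them a second gene of the same symbol with 0 counts, over 186 of its 1713 exon bases, so its counts are uncertain. Eif2ak3 (PERK) was at 36.5, 36.8 and 44.0 CPM in DSS mice against 48.5, 47.8 and 46.4 CPM in wild-type controls, with no overlap. Its change of -0.28 ± 0.105 (SE, adjusted p = 0.0401) was lost without any one of 5 of the 6 mice, and its values in the other models, between -0.22 and 0.08, did not pass the test. Atf6 stood between -0.14 and 0.22 and did not pass in any model by edgeR over all groups. In TRUC it passed on the 2 groups alone (0.23, adjusted p = 0.0484) and by DESeq2 (0.24, adjusted p = 0.0493), with the IL10 antibody under upper quartile scaling (-0.29, adjusted p = 0.0276), and in TCT without mouse 1 (-0.30, adjusted p = 0.0407).

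**Figure D5:**
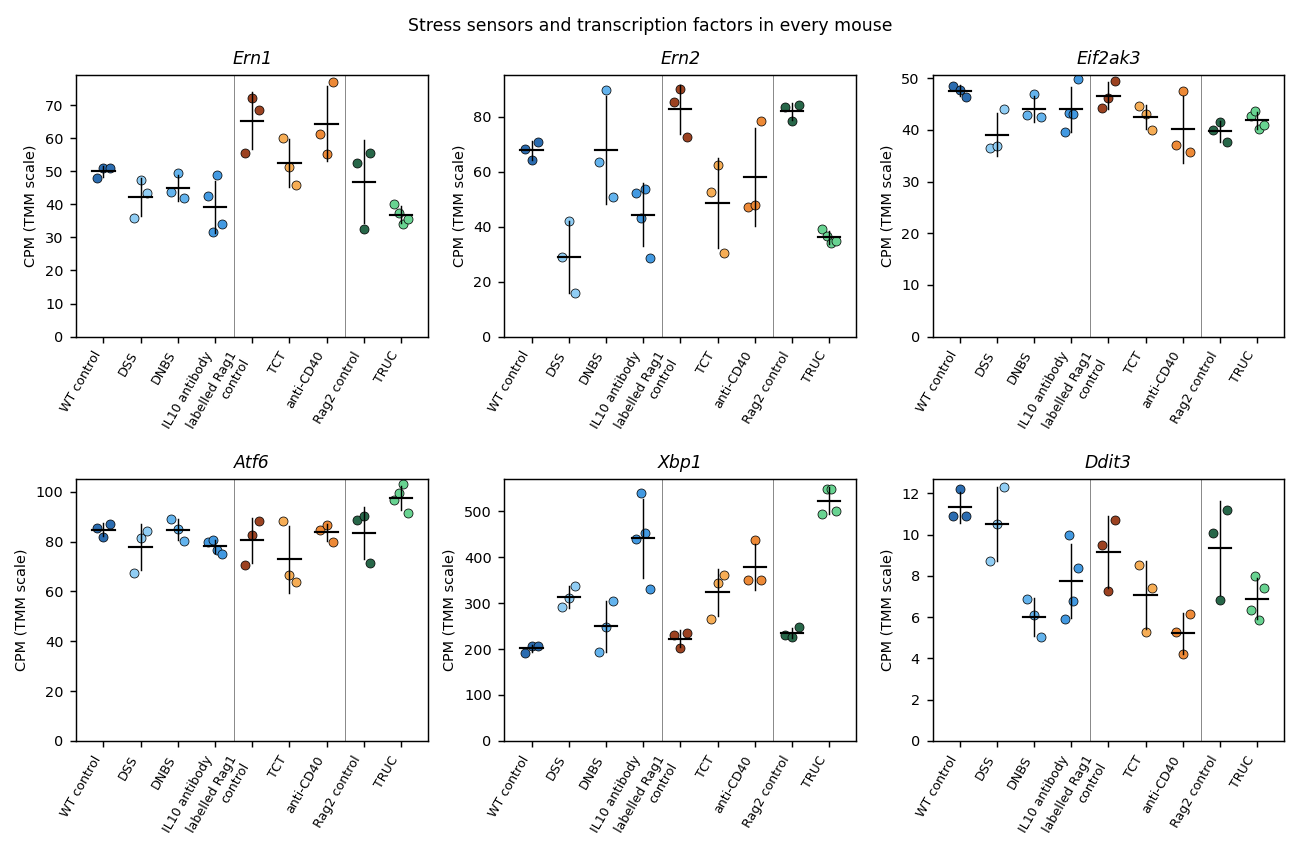
CPM on the TMM scale (vertical axes, from 0) of Ern1, Ern2, Eif2ak3, Atf6, Xbp1 and Ddit3 in every mouse (points) of the 9 groups, with the group mean (bar) and SD (line). Xbp1 is above its controls in every mouse of 5 models, and Ern2 is below them in every TRUC, DSS, IL10 antibody and TCT mouse.

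Whether a member changed by the same amount in all models was tested by an F test of equal contrasts. The change of 30 of 38 members differed between the 6 models, where 60.5% of all genes tested did. Hspa5, Hyou1, Pdia4, Sel1l, Trib3, Ern1, Eif2ak3 and Atf6 were the 8 that did not pass (adjusted p between 0.056 and 0.504). The mean change in DSS, DNBS and IL10 antibody mice, whose hosts have T and B cells, was set against that in TRUC, TCT and anti-CD40. For 0 of 38 members did this difference pass the test in edgeR (lowest adjusted p = 0.161), with 3 at an unadjusted p below 0.05 (P4hb, Dnajc3 and Sdf2l1), where 1.73% of all genes passed. The difference of Hspa5 was -0.26 ± 0.259 (SE) on the log2 scale, from mean changes of 0.85 and 1.12, and agent, strain and control group also differ between the hosts. TCT mice carried transferred T cells, and their T cell markers summed to 90.1 to 166 CPM. The sum was 57 to 107 CPM with the IL10 antibody, 32.3 to 49.8 CPM in DSS and 5.04 to 17.7 CPM in DNBS. The contrast therefore does not separate groups with T cells from groups without.

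Untreated wild-type colon was compared with untreated Rag2-/- colon to see whether the members differ without T and B cells. By edgeR 0 of 38 members were higher in wild-type controls, with 2 at an unadjusted p below 0.05 and 0 by DESeq2, where 4.86% of all genes were higher. Only Dnajc10 was lower, at 108, 104 and 106 CPM against 136, 146 and 149 CPM, where 3.25% of all genes were lower. The ranges did not overlap, but the call (-0.44, adjusted p = 0.0423) was lost without any one of the 6 mice. In the same comparison 7 of 10 plasma cell markers and 5 of 5 B cell markers were higher in wild-type controls.

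Members with an ER stress element of either kind were set beside the other members with a promoter window. With such an element 10 of 11 rose in TRUC, 11 with the IL10 antibody, 8 in anti-CD40, 6 in TCT, 4 in DSS and 0 in DNBS, the last with 2 at an unadjusted p below 0.05 and 0 by DESeq2. Of the 22 without one, 16, 16, 12, 8, 11 and 6 rose in these models. Members with an element had a median log2 fold change of 1.05 against 0.94 in TRUC, 0.92 against 0.80 with the IL10 antibody and 0.84 against 0.54 in anti-CD40. It was 0.49 against 0.32 in TCT, 0.35 against 0.38 in DSS and 0.30 against 0.29 in DNBS. The 4 members with the ATF4 element, whose sequences are shown above, changed by 0.68 to 4.24 in TRUC and by 0.04 to 1.81 in DSS, where Herpud1 was the one that did not pass. These counts describe the members and no test was made between them.

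Neighbouring genes of the pathway were counted in the same way, in 5 further lists with 94 genes tested. Of these 49 rose in TRUC (52.1%), 59 with the IL10 antibody (62.8%), 30 in anti-CD40 (31.9%), 20 in TCT (21.3%), 14 in DSS (14.9%) and 11 in DNBS (11.7%). Of all genes 22.4%, 27.2%, 10.9%, 16.1%, 17.7% and 3.95% were called higher in these models, and in DSS the share of these 94 genes was below that of all genes. At the same time 8 fell in TRUC (8.51%), 8 with the IL10 antibody (8.51%), 5 in anti-CD40 (5.32%), 10 in TCT (10.6%), 12 in DSS (12.8%) and 1 in DNBS (1.06%). Of all genes 23.4%, 26.1%, 10.7%, 14%, 16.3% and 2.21% were called lower in these models, a larger share in each. Other translocation and N-glycosylation genes, 23 in number, rose in 17 cases in TRUC, 18 with the IL10 antibody, 11 in anti-CD40, 7 in TCT and 3 in DNBS, and 2 of them fell in DSS, 2 with the IL10 antibody, 1 in TCT and 1 in anti-CD40. Their median log2 fold change was 0.65 in TRUC, 0.69 with the IL10 antibody, 0.32 in anti-CD40, 0.21 in TCT, 0.32 in DNBS and 0.10 in DSS.

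Other folding enzymes (22 tested) rose in 10, 15, 7, 3, 2 and 3 cases in TRUC, IL10 antibody, anti-CD40, TCT, DNBS and DSS, and 1, 2, 1, 2 and 3 fell in TRUC, IL10 antibody, anti-CD40, TCT and DSS. The share that rose was 13.6% in TCT and in DSS, below that of all genes. Other degradation genes (14) rose in 7 cases in TRUC, 10 with the IL10 antibody, 3 in TCT, 2 in anti-CD40 and 2 in DSS, and 2 fell in TCT and 2 in DSS. Their median log2 fold change was 0.10 in DNBS, and the share that rose in DSS was 14.3%, below that of all genes. Other stress sensors and cofactors (16) rose in 6, 7, 3, 2, 3 and 2 cases in TRUC, IL10 antibody, anti-CD40, TCT, DNBS and DSS, and 4, 2, 1, 4 and 3 fell in TRUC, IL10 antibody, anti-CD40, TCT and DSS. In TCT and DSS the share that rose was 12.5%, below that of all genes. Other targets of the integrated stress response (19 tested) rose in 9, 9, 7, 5, 3 and 7 cases in the order used for folding enzymes, and 3, 2, 2, 1, 1 and 2 fell.

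Of each list the gene with the largest rise and the largest fall was taken. Among translocation genes these were Srp54a in TCT (4.52, from 0.475 to 11.2 CPM, the gene described above that separates libraries regardless of treatment) and Sec61a2 with the IL10 antibody (-0.92, 16.4 to 8.63 CPM). Among folding enzymes Mzb1, a cofactor of BiP in plasma cells, rose by 3.59 with the IL10 antibody, from 5.18 to 62.2 CPM, and Uggt2 fell by 1.76 there, from 5.49 to 1.61 CPM. Vcp, the ATPase that extracts proteins from the ER, rose by 0.91 in TRUC, from 219 to 412 CPM, and Erlec1 fell by 0.38 in DSS, from 33.9 to 26.0 CPM.

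Creb3l3, a membrane-bound factor of the ATF6 kind, rose by 3.53 in TCT, from 0.878 to 10.4 CPM. Creb3l4, its relative, fell by 1.44 in DSS, from 24.9 to 9.15 CPM. Slc7a11, the cystine transporter, rose by 3.77 in DSS, from a mean of 3.8 CPM to 12.6, 16.7 and 126 CPM in mice 5, 6 and 8, so the mean rested largely on mouse 8. Gdf15, a stress cytokine, fell by 1.87 in TRUC, from 7.06 to 1.94 CPM.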

How the data were processed

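RNA of whole colon from 29 mice in 9 groups was sequenced by the study, and the authors deposited 1 table of raw read counts per gene. The submitters' processing notes name Trimmomatic, HISAT2, HTSeq and GRCm38, without versions, and whether counting used strand was not given in the sources used here. The 92 spike-in rows held 0 counts and were left out. The labels number samples within a group without saying that each is a separate animal. They were taken as 1 mouse each, and p-values measure the spread between these samples. The 18616 of 54532 genes whose counts averaged 3 or more were fitted with edgeR 4.0.16 (R 4.3.3) by quasi-likelihood over all 9 groups, with TMM scaling and no covariate. P-values were adjusted by Benjamini-Hochberg over all genes tested at 0.05. CPM values are counts relative to library size on the TMM scale, and 3 counts corresponded to 0.179 to 0.313 CPM, which covers counting error only. Alternatives were RLE and upper quartile scaling, other filters, the 2 groups alone, DESeq2 1.42.0, a stricter threshold, other controls and leaving out each mouse. In data simulated for TRUC, 80 of 100 genes changed 3-fold and 21 of 100 changed 1.5-fold were recovered among 18616 genes, with 5 others called. The 38 members and all lists were chosen with earlier results of these data known. Values in every mouse were printed for the 3 largest called rises and falls of each comparison among members with a mean of at least 1 CPM, and for Hspa5, Xbp1, Ern1, Ern2, Derl3 and Ddit3, with some further members added after their values were seen. Promoters came from RefSeq (GRCm38.p6). A planned look at the ER retention signals of the proteins was not run. Same-group libraries all differed by more than sampling noise (33 pairs, chi-square divided by its degrees of freedom at least 3.46).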

Additional observations from a re-analysis of the deposited data

Results flagged for a closer look

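The change of 30 of the 38 members differed between the 6 models in the F test of equal contrasts (edgeR quasi-likelihood, adjusted over all genes tested). Among chaperones the adjusted p was 0.0094 for Hsp90b1, 0.000243 for Calr, 0.0207 for Canx, 0.00196 for Dnajb9, 0.000344 for Dnajb11, 0.00814 for Dnajc3, 0.00119 for Dnajc10, 0.000104 for Sdf2l1, 0.00252 for Manf and 0.0219 for Creld2. Among isomerases the adjusted p was 2.41e-05 for Pdia3, 6.26e-05 for Pdia5, 0.000711 for Pdia6, 4.42e-05 for P4hb and 0.000177 for Fkbp11. Among degradation genes the adjusted p was 0.00599 for Herpud1, 7.74e-06 for Edem1, 2.37e-07 for Edem2, 0.0317 for Syvn1 and 3.5e-07 for Derl3. Among translocation genes the adjusted p was 0.0137 for Sec61a1, 8.69e-06 for Sec61b and 0.0121 for Ssr3. Among targets of the PERK and ATF4 arm the adjusted p was 0.000376 for Chac1, 0.0176 for Asns and 0.00354 for Ppp1r15a. Among sensors and transcription factors the adjusted p was 0.000464 for Xbp1, 0.00309 for Atf4, 0.0372 for Ddit3 and 0.00933 for Ern2. Of all genes tested 60.5% differed in this way. The spread was widest for Derl3, from -0.66 in DNBS to 3.35 with the IL10 antibody, and for Chac1, from 0.76 in DNBS to 4.24 in TRUC.

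A single mouse stood apart within its group. Edem1 was at 217 CPM in IL10 antibody mouse 1 and at 240, 240 and 242 CPM in the other 3 mice, a Dixon ratio of 0.899, above the critical value. The 4 mice all exceeded the wild-type controls, at 133, 136 and 144 CPM. This was 1 of 76 sets of 4 mice examined, where chance flags about 1 in 20.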

How the results depend on the processing

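Across all gene-level alternatives the direction of no called change was reversed, 181 values no longer passed the threshold and 67 newly passed it, against 3210 that kept their side. Counts of members higher or lower moved as follows. At an adjusted p below 0.01 there were 7 higher in DSS, 7 in TCT and 2 in DNBS, and 1 lower in DSS and 0 in DNBS, IL10 antibody, TCT, anti-CD40 and the wild-type against Rag2-/- comparison. With upper quartile scaling, which moved the median of all genes to -0.137 in TRUC and -0.18 with the IL10 antibody, 3 were lower in TRUC and 5 with the IL10 antibody, and 1 was higher and 0 lower in wild-type against Rag2-/- controls. With RLE scaling, without a filter, with filterByExpr, on the 2 groups alone and by DESeq2, 1 was lower in DSS. With the IL10 antibody 0 were lower without a filter and 2 with filterByExpr, on the 2 groups alone and by DESeq2. On the 2 groups alone 1 was higher in DNBS, and 1 was higher and 2 lower in wild-type against Rag2-/- controls, where DESeq2 gave 2 lower and the fit without a filter 0. The causes were not tested. Same-numbered mice did not deviate together (correlations from -0.098 to 0.0993), and with the replicate number as a block 2 were lower with the IL10 antibody and 1 was higher in wild-type against Rag2-/- controls.

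Without single mice the count higher ranged from 8 to 17 in DSS, 2 to 13 in DNBS, 4 to 21 in TCT and 13 to 23 in anti-CD40, and the count lower from 1 to 2 in DSS, 0 to 1 in DNBS, TCT and anti-CD40, 0 to 2 with the IL10 antibody, 1 to 3 in TRUC and was 0 in wild-type against Rag2-/- controls. Of 19 DSS calls 7 held without each mouse, as did 2 of 7 in DNBS, 4 of 18 in TCT, 13 of 24 in anti-CD40, 28 of 30 in TRUC and 28 of 31 with the IL10 antibody. Chac1, Derl3 and Trib3 rest on few reads in controls, with as few as 3 in a mouse.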
